A study of Homo sapiens with 6 samples.

Results

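Interferon-stimulated genes and nucleic acid sensors were examined in DIvA cells with and without p53. The set held 44 genes, chosen by symbol, of 55882 gene rows in the count table, and all 44 were found. DIvA cells come from U2OS, a human osteosarcoma line, and carry the restriction enzyme AsiSI in a form that 4-hydroxytamoxifen (4-OHT) sends into the nucleus, where it makes double-strand breaks at its sites. There were 3 libraries of cells with wild-type p53 (p53 WT) and 3 of p53 knockout cells (p53 KO). All 6 came from cells given 300 nM 4-OHT for 5 h, so every group carried the nuclease and the drug, and no sample without 4-OHT was analysed here. The labels do not give the number of knockout clones or whether replicates were separate cultures. Differences between clones therefore cannot be told apart from the loss of p53, and p-values measure the spread between these samples, which may be technical.

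Interferons are secreted proteins that warn neighbouring cells of infection. Type I interferon binds the receptor IFNAR1/IFNAR2, the kinases JAK1 and TYK2 phosphorylate STAT factors, and these join IRF9 to form a complex that binds the interferon-stimulated response element (ISRE) in the promoters of interferon-stimulated genes. RNA sensors such as RIG-I (gene DDX58) and MDA5 (IFIH1) signal through MAVS, and the DNA sensor cGAS (MB21D1) signals through STING (TMEM173). Both routes activate TBK1 and the factor IRF3, which induces interferon. Broken or misplaced DNA in the cytoplasm can feed the DNA route, and p53 is known to induce some genes of this system.

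Many of the members have the ISRE in a promoter, and 7 promoters are printed, those of some pairs of neighbours and that of the RNA sensor DDX58. The promoters of IFI16, a DNA sensor that also fell below, are not printed. RefSeq sequences (GRCh38.p14) running from 250 bases before to 50 bases after a start were found for 36 of the 44 members. The ISRE core was searched on both strands as GAAA, any 2 bases and GAAA, or its reverse complement TTTC, any 2 bases and TTTC. It lay in at least 1 promoter of 25 of the 36 members (69.4%) and of 1195 of all 27305 genes in the table (4.38%). The GAS motif, known from the response to interferon gamma and spelled TTCNNNGAA, which reads the same on both strands, lay in 12 of the 36 members (33.3%) and in 9.38% of all genes. Capitals mark the ISRE core in the sequences below, 5′ to 3′ on the strand of the gene. IFIT1 (chr10:89392373-89392672, + strand) and IFIT5 (chr10:89414318-89414617, + strand) are next to each other, DTX3L (chr3:122564088-122564387, + strand) and PARP9 (chr3:122564251-122564550, - strand) lie head to head, and SAMD9 (chr7:93117930-93118229, - strand) and SAMD9L (chr7:93148336-93148635, - strand) are paralogs side by side. DDX58 (chr9:32526147-32526446, - strand), listed in RefSeq as RIGI, had no match to these letters in this window.
IFIT1: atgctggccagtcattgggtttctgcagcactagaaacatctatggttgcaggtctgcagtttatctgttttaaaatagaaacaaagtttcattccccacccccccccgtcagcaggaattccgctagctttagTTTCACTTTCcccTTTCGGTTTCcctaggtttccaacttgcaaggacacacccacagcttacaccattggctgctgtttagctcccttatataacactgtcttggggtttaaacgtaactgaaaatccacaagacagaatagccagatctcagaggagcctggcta
IFIT5: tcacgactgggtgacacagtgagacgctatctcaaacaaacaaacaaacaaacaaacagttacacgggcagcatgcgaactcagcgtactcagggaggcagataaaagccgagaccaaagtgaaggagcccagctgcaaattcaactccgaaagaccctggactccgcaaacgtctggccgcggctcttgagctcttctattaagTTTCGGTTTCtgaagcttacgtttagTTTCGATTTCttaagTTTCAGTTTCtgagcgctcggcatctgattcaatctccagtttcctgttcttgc
DTX3L: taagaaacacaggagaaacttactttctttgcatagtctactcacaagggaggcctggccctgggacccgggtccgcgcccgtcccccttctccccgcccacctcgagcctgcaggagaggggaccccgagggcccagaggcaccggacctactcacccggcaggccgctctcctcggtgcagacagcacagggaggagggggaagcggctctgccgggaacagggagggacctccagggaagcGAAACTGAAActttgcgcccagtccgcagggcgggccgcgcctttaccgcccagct
PARP9: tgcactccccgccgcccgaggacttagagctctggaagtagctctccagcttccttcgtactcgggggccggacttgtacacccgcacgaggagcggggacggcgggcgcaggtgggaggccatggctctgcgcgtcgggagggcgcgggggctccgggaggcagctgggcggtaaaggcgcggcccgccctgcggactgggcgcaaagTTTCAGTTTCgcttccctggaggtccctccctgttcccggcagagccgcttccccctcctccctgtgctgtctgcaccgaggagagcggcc
SAMD9: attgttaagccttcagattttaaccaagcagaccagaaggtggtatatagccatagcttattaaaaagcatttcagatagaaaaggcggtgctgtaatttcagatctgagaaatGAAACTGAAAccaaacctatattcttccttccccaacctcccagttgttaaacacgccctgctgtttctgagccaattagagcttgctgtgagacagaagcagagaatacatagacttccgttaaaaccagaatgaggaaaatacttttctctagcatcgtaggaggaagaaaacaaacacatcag
SAMD9L: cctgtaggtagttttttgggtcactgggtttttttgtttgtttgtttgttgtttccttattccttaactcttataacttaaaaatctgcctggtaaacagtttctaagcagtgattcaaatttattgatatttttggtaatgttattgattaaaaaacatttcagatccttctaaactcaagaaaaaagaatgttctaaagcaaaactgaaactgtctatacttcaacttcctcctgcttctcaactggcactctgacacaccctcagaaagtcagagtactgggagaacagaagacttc
DDX58: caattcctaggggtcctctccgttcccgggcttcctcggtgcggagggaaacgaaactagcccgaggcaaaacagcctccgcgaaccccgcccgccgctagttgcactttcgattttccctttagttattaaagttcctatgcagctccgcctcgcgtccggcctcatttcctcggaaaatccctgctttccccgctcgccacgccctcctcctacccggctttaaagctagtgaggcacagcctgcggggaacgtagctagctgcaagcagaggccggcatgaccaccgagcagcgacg
The printed DTX3L and PARP9 windows share 137 bases, so that the same ISRE core, read on opposite strands, is in both. A second PARP9 start in RefSeq lies on the other side of the DTX3L start, and reads from the stretch the genes share can be assigned only with strand information. The core was found in SAMD9 and not in the SAMD9L window. A match of letters is a description and shows no binding.

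Library totals ranged from 20393909 to 79767519 counts, and values are given as CPM, counts scaled to library size with TMM factors. Changes are log2 fold changes of p53 KO over p53 WT with a standard error (SE), and adjusted p is that of edgeR's quasi-likelihood test with Benjamini-Hochberg adjustment over all 22352 genes tested; "rose" and "fell" mean an adjusted p under 0.05. CDKN1A, which encodes the p53 target p21, had 520 to 572 CPM in p53 WT and 41.8 to 49 CPM in p53 KO, and MDM2, the p53 ubiquitin ligase, fell by 1.93 on the log2 scale (SE 0.16, adjusted p = 1e-06). Of 7 bone markers tested, 1 rose and 4 fell. COL1A1, which rose, and SPARC, which fell, were abundant (687 and 1223 CPM in p53 WT). SPP1, ALPL and RUNX2 fell from means of 64.6, 7.49 and 11.7 CPM in p53 WT to 11, 1.65 and 7.26 CPM in p53 KO. COL1A2 had a mean of 0.315 CPM in p53 WT, while SP7 and IBSP were at 0 counts in all libraries. Markers of leukocytes, which respond strongly to interferon, summed to 19.2 to 22.0 CPM over 9 genes in p53 WT and 23 to 27.5 CPM in p53 KO. ITGB2 and CORO1A rose and CD68 fell, whereas CD3E had a mean of 0 CPM in p53 WT and 0.00813 CPM in p53 KO. Plasmacytoid dendritic cell markers summed to 24.1 to 35.6 and 23.4 to 37.6 CPM, nearly all of it TCF4 and IRF8. Of 9 epithelial markers tested, 3 rose (KRT8, CLDN7 and ESRP2), none fell and all 9 estimates were above 0, with a median of 0.75 and sums of 495 to 553 CPM in p53 WT and 584 to 712 CPM in p53 KO. The part of these markers in the results below was not tested.

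The interferon module did not move in 1 direction without p53. Of 40 members tested, 8 rose (IFITM2, IRF1, HERC5, OAS3, LGALS3BP, PML, DTX3L and SAMD9), 3 fell (IFI16, DDX58 and IFIT5) and 29 did not pass. In all, 27.5% of tested members were called, against 26.5% of all tested genes (12.1% higher and 14.4% lower), so the share of members called was near that of the transcriptome. The median log2 fold change was 0.04 over the members and 0.01 over all genes, and the median size of change was 0.55 and 0.40. The groups did not overlap for 15 of the 40 members, where 40.8% of all genes tested did not overlap. The remaining 4 members, BST2, IFI35, MX2 and OAS2, had too few counts for a test. The number that rose was 4 without p53 WT replicate 2 and 5 without replicate 3 of p53 WT or replicate 1 of p53 KO. The number that fell was 3 in each of these fits.

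**Figure D1:**
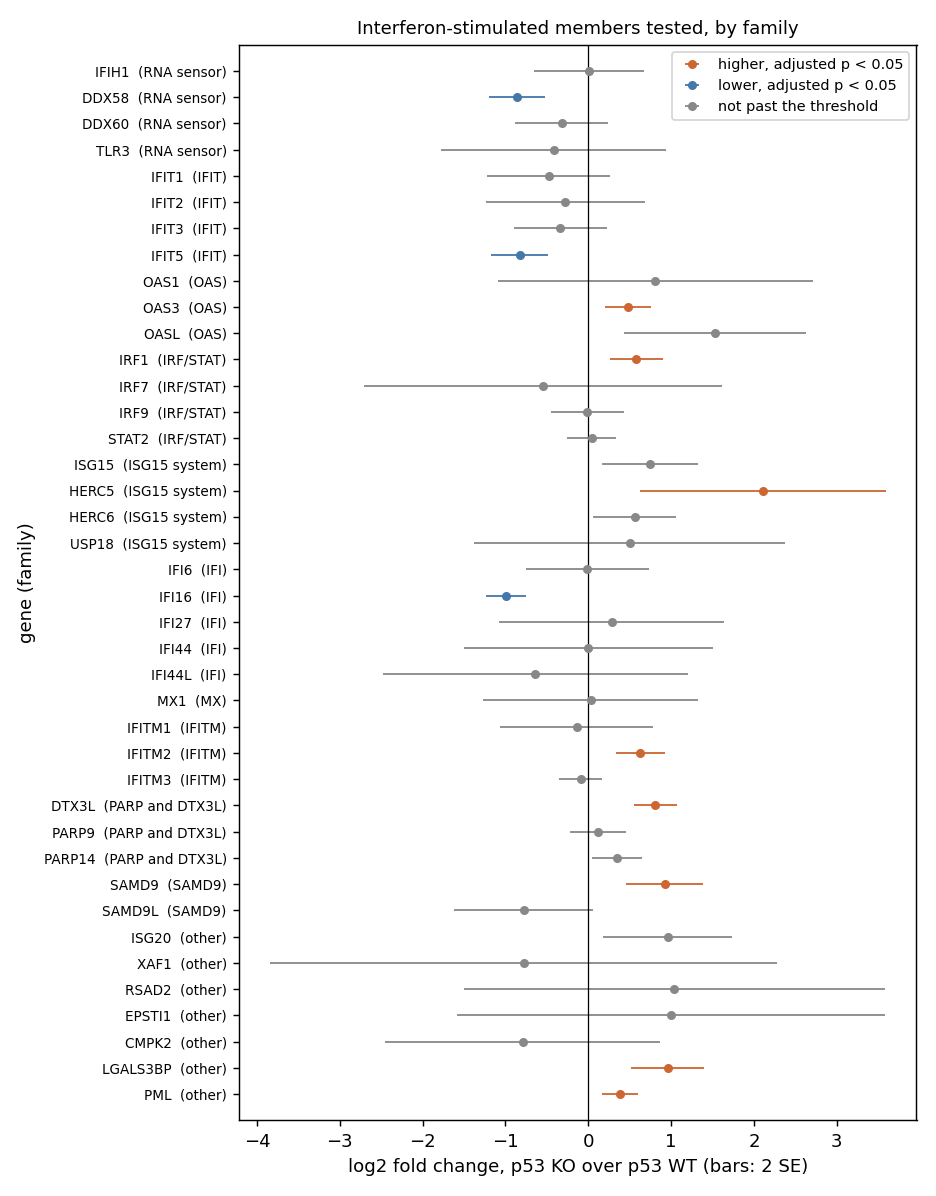
Log2 fold change of p53 KO over p53 WT (horizontal axis) for the 40 members tested, grouped by family; points are edgeR estimates and bars are 2 SE, with orange for the 8 that rose, blue for the 3 that fell and grey for the rest. The 8 that rose are spread over 7 of the family labels, and the widest bars belong to genes with few counts.

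Most members with low levels did not pass. A mean of at least 5 CPM was reached by 17 members, of which 10 were called (58.8%, against 37.5% of all tested genes at that level). None of the 9 members between 1 and 5 CPM passed (19.4% of all genes in that range did), and 1 of the 14 tested members under 1 CPM passed (6.03% of all genes there did). The 18 members under 1 CPM included MX1, MX2, OAS1, OAS2, OASL, IRF7, USP18, RSAD2, XAF1, IFI27, IFI44 and IFI44L, many of them among the genes that interferon is known to induce most. BST2, tetherin, which holds budding viruses on the cell surface, had 5 counts over all 6 libraries. Summed over all 44 members, the level was 389, 421 and 437 CPM in p53 WT replicates 1, 2 and 3 and 471, 480 and 447 CPM in the p53 KO replicates. The sums of the groups did not overlap, as was so for 40.8% of single genes tested. DTX3L, PARP9 and PARP14 together had 96, 119 and 126 CPM in p53 WT and 163, 183 and 138 CPM in p53 KO. By family, sums of the OAS, ISG15 system and other genes were also higher in every p53 KO library. Those of the RNA sensors, IFIT and IFI genes were lower in every p53 KO library. Most of the OAS, RNA sensor, IFIT and IFI sums came from OAS3, DDX58, IFIT5 and IFI16. These had means of 14.6, 15.4, 21.6 and 57.9 CPM in p53 WT, and each was the only gene called in its family. Such a sum therefore follows mainly that gene and not the family. The total therefore does not describe the set as a whole. In bulk samples a change in the number of expressing cells and a change in RNA per cell cannot be told apart.

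Among the ligands, IFNB1 (interferon beta) had 2, 0 and 0 counts in p53 WT and 13, 0 and 1 in p53 KO, and IFNL2 had 0 counts throughout. IFNK, IFNL1, IFNL3 and IFNG had 14, 3, 11 and 2 counts over all libraries. For a gene without counts, the limit that 3 counts set was 0.0381 CPM at the greatest depth and 0.150 CPM at the least. These limits cover counting error only, as the reads carried no molecular identifiers and are not independent molecules. IFNE, an interferon known from the reproductive tract, was the ligand with most counts, at 0.851, 1.11 and 1.15 CPM in p53 WT and 0.337, 0.537 and 0 CPM in p53 KO. Its groups did not overlap, but its change of -1.72 (SE 0.79) had an adjusted p of 0.131.

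Of the 4 RNA sensors, DDX58 fell and the others did not pass, and differences between sensors were not tested. DDX58 encodes RIG-I, which detects RNA with a 5′ triphosphate, and had 13.0, 16.4 and 16.8 CPM in p53 WT and 8.52, 8.27 and 8.67 CPM in p53 KO. All 3 p53 KO values lay close together and below every p53 WT value, a change of -0.86 (SE 0.17, adjusted p = 0.00174). It kept its call in all 13 other settings tried, between -0.98 and -0.65. IFIH1, which encodes MDA5, the sensor of long double-stranded RNA, had 2.02, 3.33 and 4.48 CPM in p53 WT and 2.75, 3.95 and 3.06 CPM in p53 KO. Its groups overlapped, with a change of 0.01 and an interval of 2 SE from -0.64 to 0.66. DDX60, a helicase described as a helper of RIG-I, had 3.68, 3.12 and 4.93 CPM against 3.62, 3.05 and 2.55 CPM, a change of -0.32 (SE 0.28, adjusted p = 0.459) that was -0.14 without p53 WT replicate 3 and -0.20 without p53 KO replicate 3. TLR3, the endosomal sensor of double-stranded RNA, had 1.02, 1.31 and 1.07 CPM in p53 WT and 0.904, 1.49 and 0.0501 CPM in p53 KO. The low value came from p53 KO replicate 3, where TLR3 had 1 count, and without that library its change was 0.081 in place of -0.42. That library was the shallowest, with 20393909 counts in total. In p53 WT replicate 3, with 24347609, TLR3 had 26 counts. The reason for the low value was not tested. The sensors summed to 19.7 to 27.2 CPM in p53 WT and 14.3 to 16.8 CPM in p53 KO, most of it DDX58.

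IFI16, a DNA-binding member of the PYHIN family that can act as a sensor of nuclear and cytoplasmic DNA, fell most firmly. It had 55.5, 58.4 and 59.7 CPM in p53 WT and 31.0, 31.5 and 24.3 CPM in p53 KO. Every p53 KO library was well below every p53 WT library, and the level was 0.502 of that in p53 WT (log2 fold change -0.99, SE 0.12, adjusted p = 4.3e-05). Among the 50 nearest expressed genes on chromosome 1 the median change was 0.18, and relative to that median IFI16 was at -1.18 (adjusted p = 1.33e-05). Of the other IFI genes, which share a prefix and not a function, IFI6, an inhibitor of apoptosis and viral replication, had 4.88, 2.45 and 5.09 CPM against 2.27, 4.17 and 6.06 CPM, with overlapping groups. IFI27, IFI44 and IFI44L had means between 0.340 and 0.722 CPM and did not pass (adjusted p = 0.814, 0.998 and 0.675).

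**Figure D2:**
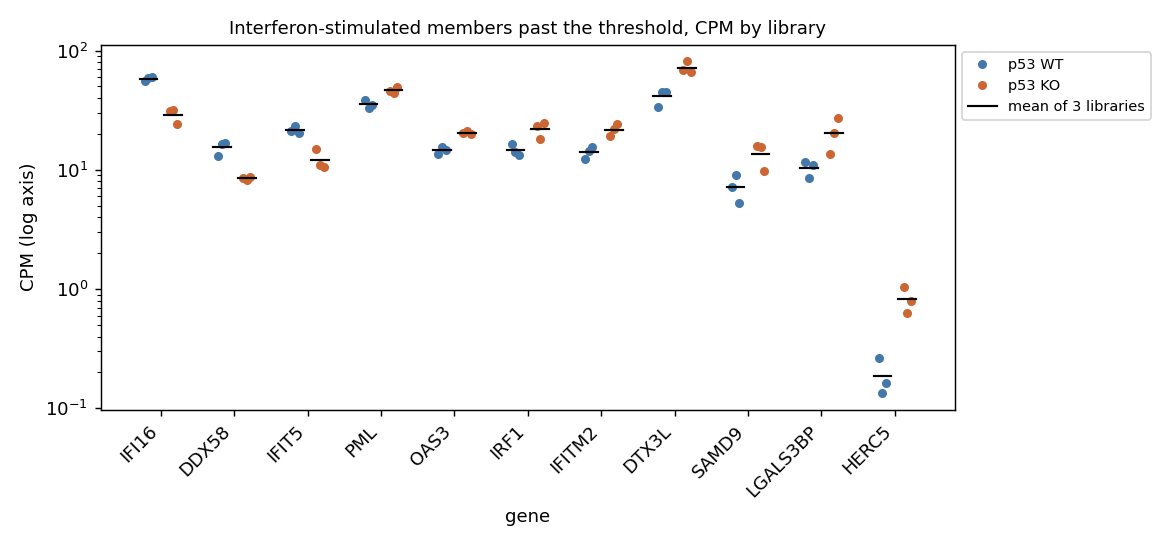
CPM on a log axis for the 11 members past the threshold, ordered by fold change; each point is 1 library (3 p53 WT in blue, 3 p53 KO in orange) and black lines are means. The groups do not overlap for any of the 11, and HERC5 lies far below the others, at 0.134 to 1.05 CPM.

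The IFIT genes encode proteins that bind foreign RNA ends and block translation, and sit in a cluster on chromosome 10. IFIT5, whose protein binds RNA with a 5′ triphosphate, had 21.2, 23.4 and 20.4 CPM in p53 WT and 14.9, 10.9 and 10.5 CPM in p53 KO. The groups were apart, with a change of -0.83 (SE 0.17, adjusted p = 0.0019). IFIT1, which binds messenger RNA lacking 2′-O methylation of its cap, had 1.68, 1.90 and 2.38 CPM against 1.32, 1.76 and 1.15 CPM. IFIT2 had 2.21, 0.773 and 2.38 CPM against 1.09, 2.20 and 1.05 CPM, and its groups overlapped widely. IFIT3, which binds and stabilises IFIT1, had 3.25, 4.44 and 3.16 CPM against 2.59, 3.15 and 2.86 CPM, with groups that touched but did not overlap. Changes of IFIT1, IFIT2 and IFIT3 were -0.48, -0.28 and -0.34 (adjusted p = 0.399, 0.731 and 0.418). With 1 library left out in turn IFIT2 lay between -0.72 and -0.046, and IFIT3 was at -0.17 without p53 WT replicate 2. All 4 estimates were thus below 0 relative to all genes. The cluster lies in a stretch where 42 of the 50 nearest expressed genes to IFIT5 were also below 0, with a median of -0.54. Relative to that median IFIT5 was at -0.29 (adjusted p = 0.256), and IFIT1, IFIT2 and IFIT3 turned to 0.07, 0.27 and 0.21 (adjusted p = 0.924, 0.772 and 0.681). FAS, a death receptor and p53 target among these neighbours, had -3.58 and still -3.05 relative to its own local median. The log2 ratio of IFIT1 to IFIT5 within a library, which does not depend on scaling, was -3.45 ± 0.32 (SD, n = 3) in p53 WT and -3.09 ± 0.43 (SD, n = 3) in p53 KO, with overlapping groups (exact permutation p = 0.3, two-sided). Both windows printed above hold the ISRE core.

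**Figure D3:**
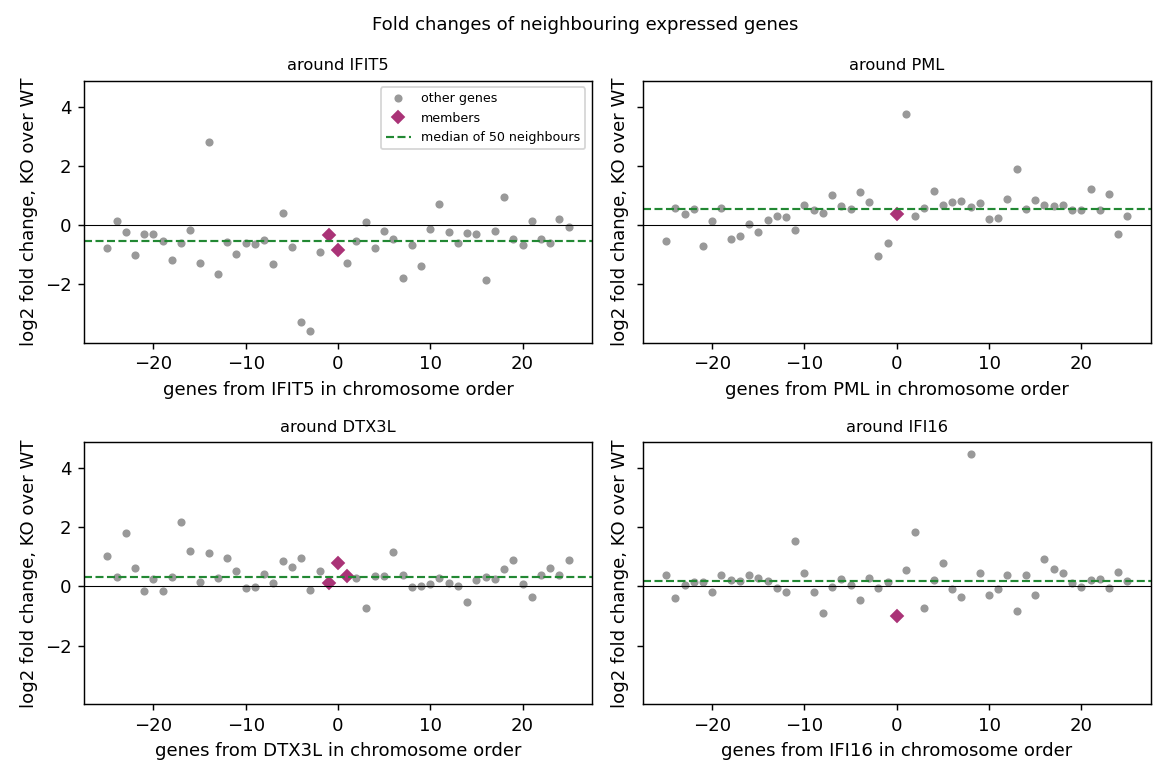
Log2 fold change of p53 KO over p53 WT (vertical axis) for up to 25 expressed protein-coding genes on each side of IFIT5, PML, DTX3L and IFI16, in chromosome order (horizontal axis); diamonds are members, grey points other genes and the dashed line the median of the 50 neighbours. IFIT5 and PML lie near lines at -0.54 and 0.54, DTX3L above a line at 0.33 and IFI16 below a line at 0.18.

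OAS enzymes make 2′-5′ oligoadenylates from ATP when bound to double-stranded RNA, a signal that leads to the decay of RNA. OAS3 had 13.5, 15.6 and 14.8 CPM in p53 WT and 20.2, 21.3 and 19.9 CPM in p53 KO. The groups were apart and each was tight, a change of 0.48 (SE 0.14, adjusted p = 0.0197), which is 1.40-fold. That call was lost without replicate 1, 2 or 3 of p53 WT or replicate 2 of p53 KO (0.42, 0.53, 0.48 and 0.45, adjusted p = 0.0909, 0.0519, 0.0594 and 0.0637), and the authors' deposited table gives OAS3 an adjusted p of 0.303. OASL, an OAS-like protein without the enzyme activity that helps RIG-I signal, had 0.508, 0.594 and 0.246 CPM against 1.70, 0.878 and 1.45 CPM. Its groups did not overlap, with 1.53 (SE 0.55, adjusted p = 0.0526), and it passed with no composition factors (adjusted p = 0.0495), with DESeq2 (adjusted p = 0.0443) and without p53 KO replicate 2 (adjusted p = 0.0418). OAS1 had 0.0762, 0.119 and 1.11 CPM against 0.796, 0.878 and 0.401 CPM and did not pass (adjusted p = 0.6). OAS2, between 0 and 0.432 CPM in each library, was not tested.

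Of the transcription factors that carry the interferon signal, IRF1 rose and the partners of the ISRE-binding complex did not pass. IRF1, a factor first found as an activator of interferon beta, had 16.6, 14.0 and 13.4 CPM in p53 WT and 23.2, 18.1 and 24.6 CPM in p53 KO. The lowest p53 KO value was just above the highest p53 WT value, and the change was 0.58 (SE 0.16, adjusted p = 0.0155). Without replicate 2 or 3 of p53 WT or replicate 1 of p53 KO it was 0.54, 0.51 and 0.53 and did not pass (adjusted p = 0.0774, 0.0713 and 0.0557). STAT2 had 25.5, 30.6 and 32.5 CPM against 35.9, 26.1 and 29.0 CPM, and its groups overlapped. Its change of 0.04 had an interval of 2 SE from -0.25 to 0.34. IRF9 had 5.07, 6.37 and 5.38 CPM against 5.20, 5.29 and 6.26 CPM, with an interval from -0.45 to 0.43, although its 50 nearest neighbours had a median of -0.36. IRF7, the factor that amplifies the type I response, had 0.216, 0.371 and 0.329 CPM against 0.175, 0.415 and 0 CPM and did not pass (adjusted p = 0.771).

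ISG15 is a ubiquitin-like protein that HERC5 attaches to newly made proteins and that USP18 removes. ISG15 had 3.76, 2.15 and 2.55 CPM in p53 WT and 4.99, 3.93 and 5.41 CPM in p53 KO. The groups did not overlap, but the change of 0.75 (SE 0.29) had an adjusted p of 0.0698, and it passed without p53 WT replicate 1 (1.02, adjusted p = 0.0352). HERC5 had 0.267, 0.134 and 0.164 CPM against 1.05, 0.634 and 0.801 CPM, from 34 counts in all of p53 WT and 120 in all of p53 KO. Its change of 2.11 (SE 0.74, adjusted p = 0.0478) was the largest of the 11 members called, and it kept its call in 3 of 12 other settings, the fewest of the 11. It was lost in each fit without 1 library (1.89 to 2.47, adjusted p = 0.0662 to 0.162), and in the authors' deposited table its adjusted p is 0.233. HERC6, its neighbour, had 4.33, 4.59 and 4.68 CPM against 8.49, 6.88 and 4.46 CPM. The p53 KO replicate 3 value lay within the p53 WT range, and without that library HERC6 passed (0.78, adjusted p = 0.021, in place of 0.56 and 0.125). USP18 ranged from 0 to 1.13 CPM in p53 WT and from 0.405 to 1.55 CPM in p53 KO and did not pass (adjusted p = 0.76).

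DTX3L and PARP9 encode partners, a ubiquitin ligase and a macrodomain protein, that act together in interferon signalling and at DNA breaks. DTX3L had 33.7, 44.9 and 45.3 CPM in p53 WT and 68.9, 81.4 and 65.9 CPM in p53 KO. The groups were far apart, with a change of 0.81 (SE 0.13, adjusted p = 0.000492), or 1.75-fold. PARP9 had 13.2, 16.0 and 16.3 CPM against 13.2, 18.7 and 17.7 CPM, and its groups overlapped, with an interval of 2 SE from -0.22 to 0.46. Within each library the log2 ratio of PARP9 to DTX3L counts was -1.35, -1.49 and -1.47 in p53 WT and -2.39, -2.12 and -1.90 in p53 KO. The ratio was lower in 3 of 3 p53 KO libraries than in any p53 WT library (difference -0.70, exact permutation p = 0.1, two-sided, the smallest that 3 against 3 allows). Its adjusted exact permutation p was 0.26. Such separation was common, as 44.8% of 35981 pairs of neighbouring protein-coding genes had ratios that did not overlap. The windows of both genes share the ISRE core printed above. PARP14, a mono-ADP-ribosyltransferase in the same cluster, had 49.1, 58.3 and 64.1 CPM against 80.6, 82.5 and 54.8 CPM. Here too p53 KO replicate 3 was low, and without it PARP14 passed (0.53, adjusted p = 0.00282, in place of 0.35 and 0.109). Neighbours on chromosome 3 had a median of 0.33, and relative to it DTX3L was at 0.47 (adjusted p = 0.0223) and PARP9 at -0.22 (adjusted p = 0.432). PARP14 was at 0.02 (adjusted p = 0.94), so nothing of its estimate was left relative to its neighbours.

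SAMD9 and SAMD9L are paralogs that restrict poxviruses and slow cell growth. SAMD9 had 7.19, 9.0 and 5.30 CPM in p53 WT and 15.7, 15.4 and 9.72 CPM in p53 KO. The groups did not overlap, and the change was 0.92 (SE 0.23, adjusted p = 0.00874), while the authors' deposited table gives an adjusted p of 0.0509. SAMD9L had 5.12, 6.84 and 9.53 CPM against 4.97, 6.00 and 1.10 CPM, with overlapping groups and a change of -0.78 (SE 0.42, adjusted p = 0.203). Without p53 KO replicate 3, its lowest library, the change was -0.36 (adjusted p = 0.382), and with no filter on low counts it passed (-0.79, adjusted p = 0.019). The log2 ratio of SAMD9 to SAMD9L was 0.49, 0.40 and -0.84 in p53 WT and 1.66, 1.36 and 3.11 in p53 KO. All 3 p53 KO ratios exceeded all p53 WT ratios (difference 2.03, exact permutation p = 0.1, two-sided, the smallest possible). After adjustment the exact permutation p was 0.26, and 44.8% of pairs of neighbouring protein-coding genes were likewise apart.

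IFITM proteins sit in membranes and block the entry of enveloped viruses. IFITM2 had 12.3, 14.4 and 15.6 CPM in p53 WT and 19.2, 21.8 and 24.1 CPM in p53 KO. The groups were apart, with 0.63 (SE 0.15, adjusted p = 0.00761). IFITM3 had 32.7, 33.3 and 31.4 CPM against 28.7, 28.0 and 35.2 CPM, overlapping, with an interval of 2 SE from -0.34 to 0.16. IFITM1 had means of 1.24 and 1.14 CPM (adjusted p = 0.869). The log2 ratio of IFITM2 to IFITM3 was -1.41, -1.21 and -1.01 in p53 WT and -0.58, -0.36 and -0.54 in p53 KO, apart in all libraries (difference 0.72, exact permutation p = 0.1, two-sided). These genes are near copies, so the counting could have split their reads, and each is uncertain as a single gene. Neighbours had a median of 0.19, and relative to it IFITM2 was at 0.44 (adjusted p = 0.0596). Over the 13 pairs of neighbouring members with a mean of at least 1 CPM, 5 had ratios that did not overlap between groups, where 44.8% of 35981 such pairs of all protein-coding genes did not overlap. Member pairs were thus not set apart by that count. Each of the 5 had an adjusted exact permutation p of 0.26. The other two of the 5 pairs were IFITM2 with IFITM1 and DTX3L with PARP14.

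PML, the scaffold of PML nuclear bodies and a known regulator of p53, had 38.6, 33.3 and 35.1 CPM in p53 WT and 46.1, 44 and 49.3 CPM in p53 KO. The groups were apart, with a change of 0.38 (SE 0.11, adjusted p = 0.0226). Its 50 nearest neighbours on chromosome 15 had a median of 0.54, and relative to them PML turned to -0.16 (adjusted p = 0.385). Leaving out p53 WT replicate 2, p53 WT replicate 3 or p53 KO replicate 1 also ended the call (0.33, 0.36 and 0.39, adjusted p = 0.132, 0.082 and 0.0526). LGALS3BP, a secreted glycoprotein that binds galectins, had 11.7, 8.62 and 10.9 CPM against 13.7, 20.3 and 27.2 CPM. Its p53 KO values were spread over a wide range, yet all lay above p53 WT, and the change was 0.96 (SE 0.22, adjusted p = 0.00543). Its neighbours on chromosome 17 had a median of -0.29, and relative to it LGALS3BP was at 1.25 (adjusted p = 0.00123). ISG20, an exonuclease, had 1.08, 1.01 and 2.14 CPM against 3.35, 2.34 and 2.30 CPM. It did not overlap and did not pass (0.96, SE 0.39, adjusted p = 0.0858), except without p53 WT replicate 3 (1.35, adjusted p = 0.0333), and neighbours on chromosome 15 had a median of 0.64. CMPK2, EPSTI1, RSAD2 and XAF1 had means of 0.141 to 0.597 CPM and did not pass, nor did MX1, at 0.742 and 0.750 CPM.

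With the local median of the 50 nearest expressed genes taken off, 5 members were higher and 2 lower of 40, or 17.5%, against 19.7% of all genes (9.51% higher and 10.2% lower). The 7 were OAS3, IRF1, DTX3L, SAMD9 and LGALS3BP, and DDX58 and IFI16, all called in the same direction before. The 4 that lost their call were IFIT5, PML, IFITM2 and HERC5 (adjusted p = 0.256, 0.385, 0.0596 and 0.059). IFIT5, PML and IFITM2 went from -0.83, 0.38 and 0.63 to -0.29, -0.16 and 0.44. HERC5, with a local median of -0.01, went from 2.11 to 2.12, so its change was not smaller. The cause of these shared shifts was not tested.

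**Figure D4:**
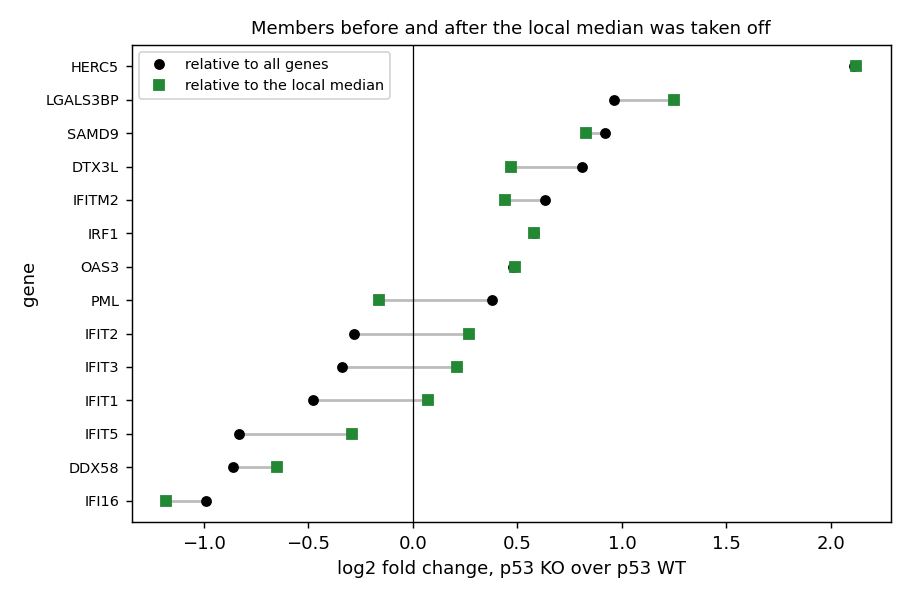
Log2 fold change (horizontal axis) of the 11 members past the threshold and the other IFIT genes, relative to all genes (black circles) and relative to the median of the 50 nearest expressed genes (green squares). IFIT1, IFIT2, IFIT3 and PML change side of 0, and DDX58, IFI16, LGALS3BP, SAMD9, IRF1 and OAS3 stay well away from it.

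The authors' deposited table marks genes that intersect a p53 cistrome, a set of p53 binding sites. It marks 124 of 35987 genes (0.345%), and all 124 had an adjusted p under 0.05 with a higher level in p53 WT, among them CDKN1A, MDM2 and FAS. None of the 44 members is marked. With so few genes marked, and none higher in p53 KO, the absence of a mark says nothing about members that rose or did not pass. IFI16, DDX58 and IFIT5, which fell, are unmarked with an authors' adjusted p of 2.54e-10, 7.28e-06 and 9.37e-05. Binding of p53 at these genes was not tested.

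The rest of the interferon pathway, 48 other genes from ligand to inhibitor, moved in both directions as well. Of 38 tested, 8 rose and 6 fell, 36.8% against 26.5% of all genes, and 10 had too few counts, 6 of them ligands. Most of those tested averaged 5 CPM or more, a level at which 37.5% of all genes were called. The share called was thus near that of genes at a like level. In the DNA branch, TMEM173 (STING) had 2.29, 1.90 and 2.34 CPM in p53 WT and 7.41, 5.83 and 10.5 CPM in p53 KO, a change of 1.86 (SE 0.27, adjusted p = 0.000167). Every p53 KO value was above every p53 WT value. MB21D1 (cGAS) had 7.99, 10.1 and 7.48 CPM against 16.8, 12.8 and 8.67 CPM and did not pass (0.59, adjusted p = 0.0725). In the authors' deposited table its adjusted p is 0.0259. SAMHD1, which breaks down deoxynucleotides and limits DNA sensing, had 18.9, 20.6 and 22.2 CPM against 45.3, 55.1 and 53.4 CPM. Its groups were far apart, with 1.32 (SE 0.13, adjusted p = 4.23e-06). MYD88, the adaptor of most Toll-like receptors, had 4.37, 4.62 and 4.76 CPM against 12.2, 9.98 and 10.8 CPM, also apart (1.27, SE 0.19, adjusted p = 0.000226). IRF5 and IFI30, a lysosomal thiol reductase, rose by 2.08 and 1.17 from 0.361 and 2.49 CPM. The authors' adjusted p for IRF5 is 0.0525.

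Of the genes that act on RIG-I or downstream of it, RNF135, TRIM25, TBK1 and TRAF3 fell, and IRF3 rose with an unsteady call. RNF135 and TRIM25, ubiquitin ligases known to activate RIG-I, fell by 1.08 (SE 0.22, adjusted p = 0.0022) and 0.43 (SE 0.12, adjusted p = 0.0139) on the log2 scale. RNF135 had 9.86, 8.40 and 7.68 CPM in p53 WT and 3.37, 4.68 and 4.26 CPM in p53 KO, so that its groups were apart. TRIM25 had 108, 129 and 148 CPM against 88.3, 97.0 and 99.8 CPM. Its call was lost without replicate 2 or 3 of p53 WT or replicate 1 of p53 KO (-0.43, -0.33 and -0.38). The authors' adjusted p for TRIM25 is 0.125. TBK1, the kinase of IRF3, fell from 40.8 ± 3.13 to 28.5 ± 5.37 CPM (SD, n = 3), a change of -0.51 that did not pass without p53 WT replicate 2 (-0.45, adjusted p = 0.0911). TRAF3, an adaptor upstream of TBK1, fell from 61.8 ± 3.87 to 36.3 ± 3.40 CPM (SD, n = 3). It lies in a stretch of chromosome 14 with a median of -1.0, and relative to that it was at 0.23 (adjusted p = 0.19). MAVS, with 18.6, 24.7 and 27.7 CPM against 19.4, 24.6 and 15.8 CPM, overlapped and did not pass (adjusted p = 0.403), nor did IKBKE, a kinase related to TBK1 (0.29, adjusted p = 0.25). IRF3, the factor that TBK1 activates, rose (0.38, adjusted p = 0.0339). That call was lost in most fits without 1 library, and relative to its neighbours IRF3 was at 0.15 (adjusted p = 0.473).

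Receptor chains differed in their calls, and the difference between chains was not tested. IFNAR2 had 21.9, 20.3 and 17.7 CPM in p53 WT and 9.77, 16.7 and 13.1 CPM in p53 KO, a change of -0.60 (SE 0.19, adjusted p = 0.0285) that was lost without replicate 1 or 2 of p53 WT or replicate 1 of p53 KO (-0.54, -0.60 and -0.42). IFNAR1 had 62.5, 63.3 and 62.8 CPM against 62.2, 64.1 and 53.2 CPM, with an interval of 2 SE from -0.28 to 0.15. IFNGR2, a chain of the interferon gamma receptor, rose from 45.6 ± 4.93 to 78.2 ± 15 CPM (SD, n = 3; 0.77, SE 0.14, adjusted p = 0.000859), and IFNGR1 did not pass (-0.13, adjusted p = 0.584). The kinases JAK1 and TYK2 had -0.01 and 0.14 (adjusted p = 0.964 and 0.413). IRF3 rose by 0.38 from 31.7 ± 1.77 to 41.3 ± 4.84 CPM (SD, n = 3). Its call was lost without any 1 of the libraries except p53 KO replicate 2 (0.32 to 0.41), and relative to its neighbours it was at 0.15 (adjusted p = 0.473). The authors' adjusted p for IRF3 is 0.0869. Of the inhibitors, SOCS3 fell by 0.75 on the log2 scale and PIAS1 rose by 0.39, and relative to their neighbours neither passed (-0.50 and 0.29, adjusted p = 0.121 and 0.116). The SOCS3 call was lost without replicate 3 of p53 WT or replicate 1 or 2 of p53 KO (-0.57, -0.67 and -0.67), and that of PIAS1 without replicate 1 or 2 of p53 WT or replicate 2 of p53 KO (0.32, 0.37 and 0.33). Over the list, 3 genes fell in place of 6 without replicate 2 of p53 WT or replicate 1 of p53 KO.

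**Figure D5:**
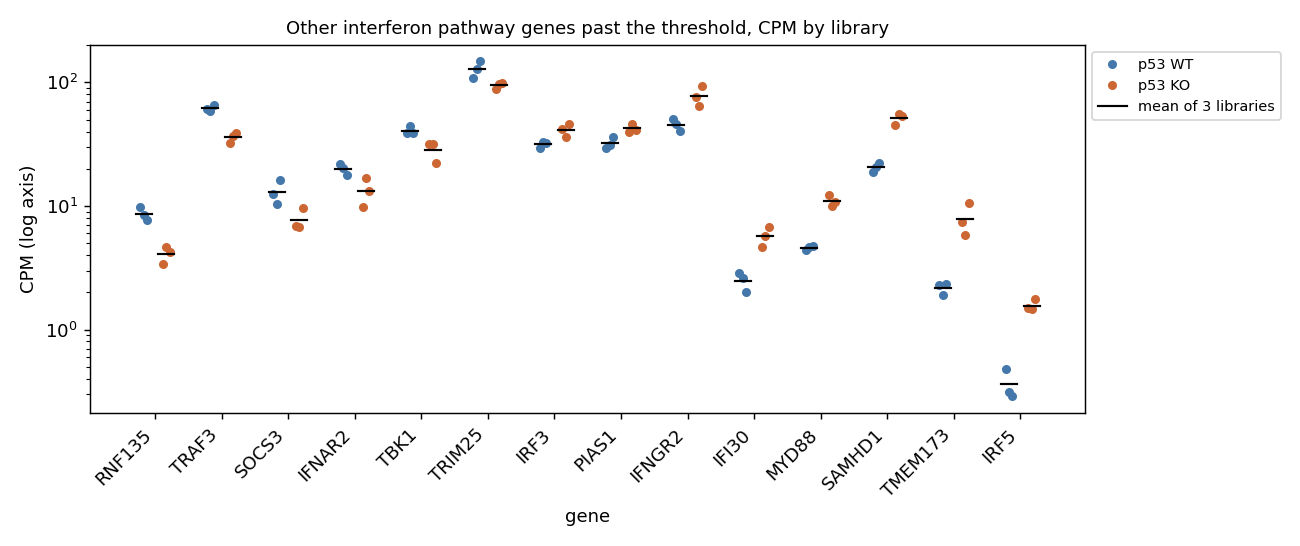
CPM on a log axis for the 14 other interferon pathway genes past the threshold, ordered by fold change; points are libraries (3 p53 WT in blue, 3 p53 KO in orange) and black lines are means. TMEM173, MYD88, SAMHD1 and IRF5 show wide gaps between the groups, while IRF3, PIAS1 and TRIM25 show narrow ones.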

How the data were processed

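Polyadenylated RNA of 6 libraries was sequenced with a stranded protocol, per the labels. The authors deposited raw counts per gene symbol, and fastp 0.21.0, HISAT2 2.1.0 and DESeq2 1.3.6 with build GRCh37 (hg19) were used, per the submitters' processing notes. No counting tool, annotation or strand setting is given in the sources used here. In the deposited comparison table, the mean signal, log2 fold change, test score and p-value are the authors' own, and its adjusted p-value and p53 cistrome mark were used. In all 35987 of its rows the fold change and the test score had opposite signs. CDKN1A, which is far lower in p53 KO by the counts, is positive there, so the sign there was taken as p53 WT relative to p53 KO.

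The test was edgeR 4.0.16 (R 4.3.3) on counts (quasi-likelihood F-test, robust, TMM factors, filterByExpr, no covariates), and an adjusted p under 0.05 was called. The SE is the size of the change divided by the square root of F. Local medians used the 50 nearest of 12068 protein-coding genes averaging 2 CPM or more, in the order of RefSeq on GRCh38.p14, a later build than that of the authors. Of the members 43 were matched to RefSeq by symbol and 1 by synonym. Log2 ratios of neighbouring members (at most 3 coding genes between them) used counts plus 0.5, a test chosen after seeing the data. Between replicates chi-square per degree of freedom was 16.7 or more, so none were copies. The edgeR, DESeq2 and local median fits were tried on simulated data, and the permutation test was not. The outcome of that trial is not reported here.

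The members and lists were chosen with earlier results of these data known. The rule named CDKN1A and MDM2, all 44 members, pathway genes past the threshold and FAS, with values per library for called members and for RNA sensor, IFIT, OAS and IRF/STAT members. Other values per library, the pathway genes that did not pass and single markers were chosen after their values were seen. A few genes of the rule and lists are not reported here. Other settings were RLE and no composition factors, no filter, 1 CPM in 3 libraries, DESeq2 1.42.0, the replicate number as a block, the local median, and each library left out. The endothelial marker list summed to 4.15 to 5.83 CPM in p53 WT and 3.71 to 5.83 CPM in p53 KO.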

Additional observations from a re-analysis of the deposited data

How the results depend on the processing

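The numbers of members that rose and fell were 8 and 3. With each library left out in turn they were 4 to 9 and 3, and for the other pathway genes 6 to 10 rose and 3 to 7 fell. With the local median taken off 5 members rose. The other settings kept all 4 counts within 1.5 times. DDX58, IFI16, DTX3L, SAMD9 and LGALS3BP kept their call in all 13 settings, IFIT5 and IFITM2 in 12, IRF1 in 10, OAS3 in 9, PML in 8 and HERC5 in 3 of 12. With the local median taken off the sign turned for PML (-0.16), TRAF3 (0.23), IFIT1 (0.074), IFIT2 (0.27), IFIT3 (0.21), IRF9 (0.35), IFI6 (0.32), STAT2 (-0.15), PARP9 (-0.22), MX1 (-0.043) and IFIH1 (-0.014), and the cause was not tested. Among uncalled genes near 0, the sign also turned for IFI6 with RLE factors (0.0018), no composition factors (0.0051) and DESeq2 (0.0070), for IRF9 with no composition factors (0.0075), and without a filter for IFIH1 (-0.0042) and IFI44 (-0.013). Leaving out 1 library gave ranges that span 0 for IFIH1 (-0.26 to 0.28), TLR3 (-1.10 to 0.081), IRF9 (-0.094 to 0.090), STAT2 (-0.098 to 0.14), USP18 (-0.30 to 1.60), IFI6 (-0.35 to 0.31), IFI27 (-0.096 to 0.66), IFI44 (-0.088 to 0.11), MX1 (-0.41 to 0.61) and IFITM1 (-0.37 to 0.13). Deviations of same-numbered libraries from their group means had r = -0.0678, 0.175 and -0.253 over 12694 genes. Within each group of 3 libraries the deviations sum to 0, so the r values constrain each other. They cannot settle whether the numbers pair the libraries. Larger values were found across numbers: 0.453 for p53 WT replicate 1 with p53 KO replicate 3, and 0.349 for p53 WT replicate 3 with p53 KO replicate 2. For p53 WT replicate 1 with p53 KO replicate 2 it was -0.471. A batch or pairing under another numbering was not tested. With the replicate number as a block 6 members rose and 3 fell, HERC5 (adjusted p = 0.0874) and PML (adjusted p = 0.0501) losing their calls, and of the other pathway genes 6 rose and 6 fell, IRF3 (adjusted p = 0.0718) and PIAS1 (adjusted p = 0.0527) losing theirs. Scaling moved the median gene by at most 0.0226. Depth limits the 18 members under 1 CPM.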
